A study of Mus musculus with 6 samples.

Results

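Imprinted genes outside the Dlk1-Meg3 cluster were followed in 2 neighbouring pieces of the mouse ventral midbrain. A list of 49 such genes was given, and every probe set annotated to exactly 1 of their symbols was taken, which gave 99 of the 45101 probe sets on the array and 43 genes of 18193 named singly. H19, Zrsr1, Zfp264, Slc22a3, Peg13 and Htr2a had no probe set of their own and were not analysed here, and neither were 8 probe sets whose annotation pairs one of the listed genes with a further gene. Of the 43 genes, 22 were read by 1 probe set and 21 by several, with up to 8 for Ndn. Tissue came from wild-type C57BL/6 embryos of mixed sex at embryonic day 10.5. The floor plate is the strip of cells along the ventral midline, and the ventral lateral region is the tissue next to it, cut so as not to overlap. Each region had 3 samples, each of them tissue pooled from 6 embryos, and 5 ng of total RNA per sample was amplified and hybridised to an Affymetrix array. The labels do not say whether floor plate and ventral lateral pools shared embryos, so p-values measure the spread between these 6 samples.

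Imprinted genes are transcribed mainly from the allele inherited from one parent, and they lie in clusters whose allele choice is set by DNA methylation laid down in the germ line. Many of them act on growth, with paternally expressed genes often promoting it and maternally expressed ones often holding it back, and a large share is active in the developing brain. Several are imprinted only in placenta or only in neurons, and at those loci both alleles are read in other tissues. The arrays measured total RNA from an inbred strain, so no value below says which allele a transcript came from. Domain and parental allele are given from general knowledge of each locus.

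All values are on the log2 scale, relative to the median of that probe set over the 6 arrays, so they show how samples differ and not how abundant an RNA is. No source used here names the log base or the direction; base 2 was assumed, with larger values meaning more RNA. Because of the centring the middle pair of values of a probe set is symmetric around 0. A log2 fold change is the floor plate mean minus the ventral lateral mean, with the standard error (SE) from limma, and a probe set passed where its Benjamini-Hochberg adjusted p over 45037 probe sets was under 0.05. The median SE was 0.129 over the 99 probe sets and 0.127 over all of them. The regions matched their labels. Of 10 floor plate marker genes 9 had a probe set that was higher in floor plate and none had one that was lower. All 9 measured ventrolateral genes had one that was lower. The lists were chosen with earlier results of these data known, so this is not an independent check. Neuronal markers had 3 of 10 genes lower in floor plate, and the mean over the list lay between -0.30 and -0.07 in the floor plate arrays and between -0.04 and 0.36 in the others. Blood and surface ectoderm markers had no probe set past the threshold (9 and 8 genes; limma; 1 and 3 probe sets at an unadjusted p under 0.05), and of 10 mesenchyme genes 1 was higher, Twist1 (log2 fold change 2.11), while of 10 endothelial genes 1 was lower, Cldn5 (-0.68).

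Of the 43 imprinted genes 6 had a probe set that passed the test, and 37 had none. A gene that did not pass may lie near background, which centred values cannot show. Asb4, Pon2 and Pon3, which follow each other on chromosome 6, and the zinc finger gene Peg3 were higher in floor plate. Plagl1 and Ascl2 were lower there. In probe sets, 8 of 99 were higher and 4 lower, where 2.70% of all probe sets were higher and 2.01% lower (4.71% in all). Among the 99, 12.1% passed. An unadjusted p under 0.05 (limma) was reached by 27 of the 99, against 16.5% of all probe sets. The median log2 fold change was -0.04, against -0.00 over all probe sets, and the median size was 0.17, against 0.13. Since probe sets of a gene share their transcript, the same was done with 1 probe set per gene, that of largest variance. There 6 of 43 genes passed, namely Asb4, Peg3, Pon2, Pon3, Plagl1 and, in place of Ascl2, Nnat, where 7.80% of all genes did. The values of the groups did not overlap for 17 probe sets with floor plate higher and 18 with floor plate lower (22.4% of all probe sets over both directions). Without floor plate replicate 1 the count of higher probe sets fell from 8 to 5. In that fit the share of all probe sets that passed also fell, from 4.71% to 2.80%.

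**Figure D1:**
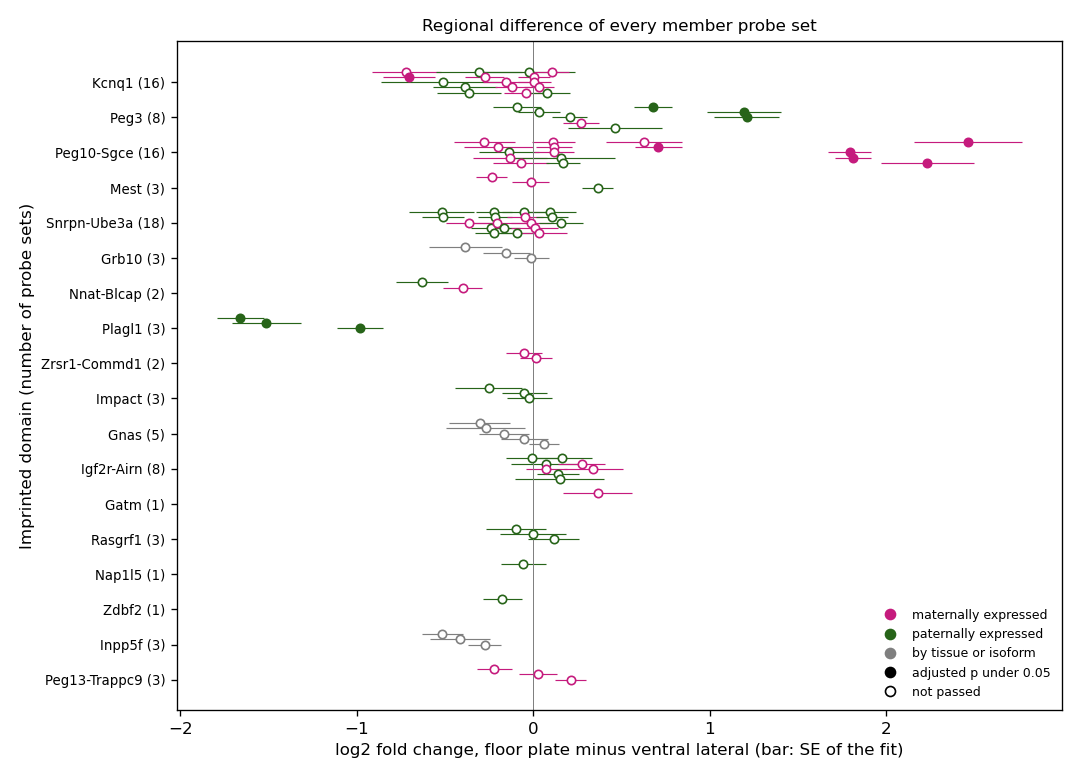
Log2 fold change (floor plate minus ventral lateral) of each of the 99 probe sets, grouped by imprinted domain and coloured by the allele known to be expressed; bars are the SE of the fit and filled points passed the test. The 12 filled points lie in the Kcnq1, Peg3, Peg10-Sgce and Plagl1 domains, and no probe set of the other 14 domains passed.

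Counted by allele, maternally expressed genes had 5 probe sets higher and 1 lower of 42 (22 genes, median log2 fold change 0.01). The 5 were all of the neighbours Asb4, Pon2 and Pon3. Of the 22 genes, 9 are classed as imprinted in placenta, so the maternal label may not hold for them in this tissue. Paternally expressed genes had 3 higher, all of Peg3, and 3 lower, all of Plagl1, of 46 (18 genes, median -0.05). Over all probe sets 2.70% were higher and 2.01% lower. The 11 probe sets of Grb10, Gnas and Inpp5f, where the allele depends on tissue or isoform, had none past the threshold (limma; 3 at an unadjusted p under 0.05) and a median of -0.27. Of the 6 genes that passed, Pon2, Pon3 and Ascl2 are known to be imprinted in placenta. The 7 genes classed by imprinting in brain had no probe set past the threshold (limma, 17 probe sets, 3 at an unadjusted p under 0.05). Of all probe sets 4.71% passed, and 16.5% had an unadjusted p under 0.05. That class leaves out Grb10, Gnas and Inpp5f. It also leaves out genes classed as imprinted broadly, among them Asb4, Peg3 and Plagl1, so it does not hold every gene imprinted in brain.

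The largest difference was at Asb4, which encodes an ankyrin repeat and SOCS box protein, a substrate receptor for ubiquitin ligation. On probe set 1433919_at it stood at 0.91, 0.77 and 1.07 in floor plate replicates 1 to 3 and at -1.82, -0.77 and -2.06 in ventral lateral replicates 1 to 3. Each floor plate sample was above each ventral lateral one, and among the latter replicate 2 was closest to floor plate. The means were 0.91 ± 0.15 and -1.55 ± 0.69 (SD, n = 3 each), a 5.51-fold difference (log2 fold change 2.46, SE 0.31, limma adjusted p = 0.00423). The other probe set, 1423422_at, gave 0.71, 0.83 and 1.06 against -1.75, -0.71 and -1.64, and a log2 fold change of 2.23 (SE 0.26, limma adjusted p = 0.00349). The floor plate markers were also highest in ventral lateral replicate 2, with list means of -0.81 there against -1.44 and -1.72 in replicates 1 and 3. The part of this in the result was not tested, and without that sample the log2 fold change of 1433919_at was 2.85. In dissected tissue, more cells of a type and more RNA per cell cannot be told apart, here and for each gene below.

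Pon2 and Pon3 encode paraoxonases, lactone-hydrolysing enzymes, of which Pon2 acts inside cells against oxidative damage. Pon2 had the smallest adjusted p of the 99 probe sets. Probe set 1429019_s_at was at 0.96, 0.81 and 1.004 in floor plate and -0.88, -0.81 and -0.99 in ventral lateral samples, in replicate order. With SDs of 0.10 and 0.09 the groups were far apart, and Pon2 was 3.52-fold higher (log2 fold change 1.81, SE 0.10, limma adjusted p = 0.000216). Probe set 1450686_at gave 0.92, 0.75 and 0.92 against -0.75, -0.93 and -1.12 (log2 fold change 1.79, SE 0.12, limma adjusted p = 0.000332). The remaining Pon2 probe sets did not pass, at 0.63 for 1429020_at (SE 0.22, adjusted p = 0.191), whose groups almost met, and 0.12 for 1425791_at (SE 0.11, adjusted p = 0.69), whose groups overlapped, so the probe sets of this gene disagreed in size.

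Pon3 differed less. Its single probe set, 1419298_at, was at 0.38, 0.21 and 0.38 in floor plate and -0.31, -0.21 and -0.64 in ventral lateral samples. The groups did not overlap, and the log2 fold change was 0.71 (SE 0.13, 1.64-fold, limma adjusted p = 0.025). It no longer passed when floor plate replicate 1 (limma adjusted p = 0.0915) or 3 (0.0852) was left out, or ventral lateral replicate 1 (0.0676) or 3 (0.0553).

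**Figure D2:**
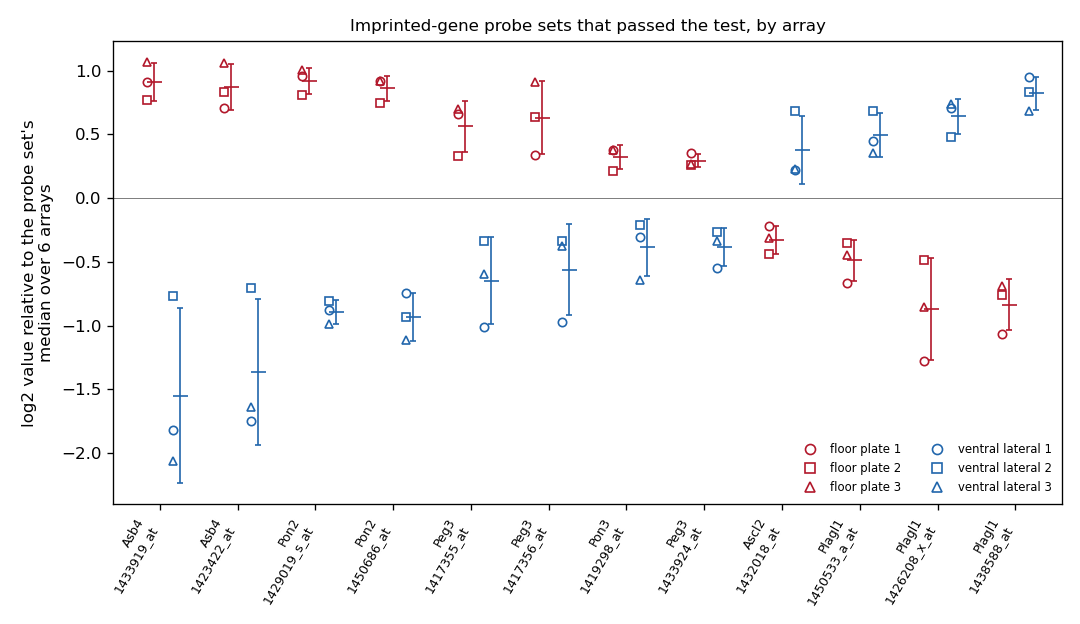
Log2 value of the 12 probe sets that passed, relative to the probe set's median, in each of the 6 arrays; symbols mark the replicate number, and the dash with its bar is the mean ± SD of 3 samples. Red floor plate and blue ventral lateral points do not overlap in any of the 12, and the blue points of Asb4 spread most, with replicate 2 nearest to 0.

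These 3 genes lie side by side. In the RefSeq gene order, among genes with a probe set of their own, the run is Ppp1r9a, Pon1, Pon3, Pon2, Asb4, Pdk4. From Calcr to Dlx5, 22 such genes were measured by 39 probe sets. Of these, 5 were higher and 0 lower, where 2.70% and 2.01% of all probe sets were. Asb4, Pon2 and Pon3 were the only genes of the stretch with a probe set past the threshold. Their direct neighbours did not pass: Pon1, a paraoxonase not known to be imprinted, was at 0.36 (SE 0.13, adjusted p = 0.222) and Pdk4, a pyruvate dehydrogenase kinase gene, at 0.48 (SE 0.24, adjusted p = 0.383). The founding imprinted genes of the domain did not pass either. Peg10, which derives from a retrotransposon, was at -0.14 (SE 0.17, adjusted p = 0.772), and Sgce, encoding epsilon-sarcoglycan and sharing a promoter region with it, at 0.17 and 0.16. The 5 probe sets of Ppp1r9a (neurabin) lay between -0.28 and 0.12, and that of the calcitonin receptor gene Calcr at -0.13.

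**Figure D3:**
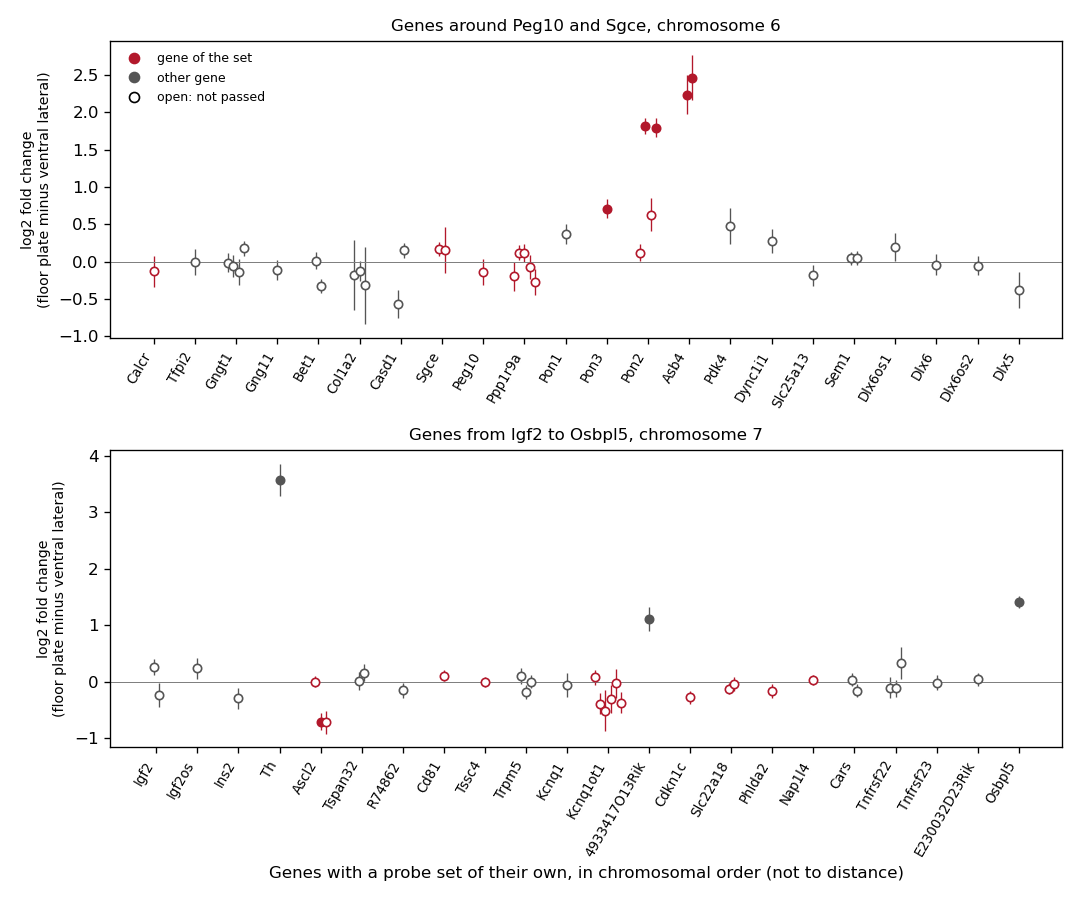
Log2 fold change (floor plate minus ventral lateral, bar the SE of the fit) of each probe set, with genes in chromosomal order and not to distance; red marks the imprinted genes of the set, and filled points passed. In the upper panel the filled points belong to Pon3, Pon2 and Asb4, and in the lower panel to Th, Ascl2, 4933417O13Rik and Osbpl5.

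The promoters of these 3 neighbours are shown because the genes lie side by side and were all higher in floor plate. Each line holds the 250 bases before a transcription start from RefSeq (GRCm38.p6), on the strand of the gene, with the dinucleotide CG, the substrate of DNA methylation, in capitals. Asb4 has 2 starts, after chr6:5383136-5383385 and chr6:5390160-5390409 on the plus strand. The windows of Pon2 (chr6:5298341-5298590) and Pon3 (chr6:5256234-5256483) are on the minus strand.
Asb4, first start: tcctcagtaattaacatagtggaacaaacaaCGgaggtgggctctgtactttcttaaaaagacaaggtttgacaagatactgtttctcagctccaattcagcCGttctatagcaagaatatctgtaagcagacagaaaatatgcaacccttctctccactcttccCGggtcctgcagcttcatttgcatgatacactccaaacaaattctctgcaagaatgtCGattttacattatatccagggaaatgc
Asb4, second start: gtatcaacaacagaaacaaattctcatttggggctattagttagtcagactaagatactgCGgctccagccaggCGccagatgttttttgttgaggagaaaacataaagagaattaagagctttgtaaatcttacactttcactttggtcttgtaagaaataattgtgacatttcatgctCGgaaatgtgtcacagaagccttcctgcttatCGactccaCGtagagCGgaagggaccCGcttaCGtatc
Pon2: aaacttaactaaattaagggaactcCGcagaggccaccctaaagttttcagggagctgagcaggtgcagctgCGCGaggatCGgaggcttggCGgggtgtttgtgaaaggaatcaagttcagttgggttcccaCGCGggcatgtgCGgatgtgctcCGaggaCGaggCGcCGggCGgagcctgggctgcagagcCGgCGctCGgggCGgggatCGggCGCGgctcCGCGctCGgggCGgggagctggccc
Pon3: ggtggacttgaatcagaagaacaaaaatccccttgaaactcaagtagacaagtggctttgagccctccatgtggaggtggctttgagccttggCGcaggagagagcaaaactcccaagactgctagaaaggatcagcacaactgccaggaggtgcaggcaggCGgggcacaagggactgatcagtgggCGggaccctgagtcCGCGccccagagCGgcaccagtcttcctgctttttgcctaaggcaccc
Pon2 held 24 CG dinucleotides, a number reached by 12% of all 32851 promoters. Pon3 held 6, the median of all promoters, and the Asb4 windows 4 and 8.

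Peg3 was the other gene that was higher. It encodes a zinc finger transcription factor, is read from the paternal allele, and is known for effects on growth and maternal behaviour. On probe set 1417355_at it was at 0.66, 0.33 and 0.70 in floor plate and -1.01, -0.33 and -0.60 in ventral lateral samples. The groups were separate, with replicate 2 closest to the middle in both, and Peg3 was 2.31-fold higher (log2 fold change 1.21, SE 0.19, limma adjusted p = 0.0105). Probe sets 1417356_at (1.19, SE 0.21, limma adjusted p = 0.0192) and 1433924_at (0.68, SE 0.11, limma adjusted p = 0.0121) passed as well. The others, 1447731_at and 1447732_x_at, were at 0.03 and 0.21 and did not. Each of the 3 that passed had fits without 1 sample in which it did not: 1417355_at and 1433924_at without floor plate replicate 1 (adjusted p of 0.0553 and 0.052), and 1417356_at without floor plate replicate 2 (0.0572) or 3 (0.0616).

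Usp29, a ubiquitin-specific protease family gene, starts next to Peg3 on the opposite strand, and the 250-base windows before the 2 starts share 163 bases. The Peg3 window, chr7:6730420-6730669 on the minus strand, is printed for that reason, with CG in capitals.
Peg3: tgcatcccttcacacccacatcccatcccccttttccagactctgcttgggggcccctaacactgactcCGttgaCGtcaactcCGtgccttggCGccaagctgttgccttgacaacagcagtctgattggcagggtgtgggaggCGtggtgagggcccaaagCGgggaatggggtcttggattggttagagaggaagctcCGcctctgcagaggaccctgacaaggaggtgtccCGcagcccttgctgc
Usp29 did not pass on either probe set. On 1427551_at it was at -0.29, 0.64 and 0.72 in floor plate and 0.09, -0.33 and -0.09 in ventral lateral samples. Floor plate replicate 1 lay among the ventral lateral values, and the log2 fold change was 0.46 (SE 0.27, limma adjusted p = 0.46). On 1419237_at it was -0.09. Zim1, the maternally expressed zinc finger gene of the domain, was at 0.27 (SE 0.10, limma adjusted p = 0.236).

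Plagl1 was the imprinted gene with the clearest decrease. It encodes Zac1, a zinc finger factor that restrains cell cycle progression and regulates other imprinted genes, and it is read from the paternal allele. Probe set 1438588_at was at -1.06, -0.76 and -0.69 in floor plate and 0.95, 0.83 and 0.69 in ventral lateral samples. The groups stood apart by more than 1 on the log2 scale, and the floor plate level of Plagl1 was 3.16-fold below the other (log2 fold change -1.66, SE 0.13, limma adjusted p = 0.000591). Probe set 1426208_x_at gave -1.51 (SE 0.20, limma adjusted p = 0.00506) and 1450533_a_at gave -0.98 (SE 0.13, limma adjusted p = 0.00564). All 3 probe sets passed in each fit without 1 sample. Of the neuronal markers, 3 of 10 genes were lower in floor plate, as given above, and their part in the values of Plagl1 and Ascl2 was not tested. The stretch from Utrn to Phactr2 held 7 genes with 16 probe sets. Of these, 3 were lower, where 2.01% of all probe sets were. All 3 were of Plagl1, the only one of these genes with a probe set that passed. Its promoter window, chr10:13090582-13090831 on the plus strand, held 19 CG dinucleotides, a number reached by 19.7% of promoters.
Plagl1: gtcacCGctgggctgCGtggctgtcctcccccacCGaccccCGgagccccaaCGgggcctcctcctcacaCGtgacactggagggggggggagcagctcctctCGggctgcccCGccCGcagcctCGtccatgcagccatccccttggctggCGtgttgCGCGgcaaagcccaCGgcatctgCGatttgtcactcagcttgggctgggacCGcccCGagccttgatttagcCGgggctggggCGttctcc

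Ascl2, encoding a basic helix-loop-helix factor of trophoblast, was the only one of the 8 measured members in the Kcnq1 domain to pass. That was 1 of 16 probe sets, where 4.71% of all probe sets passed. Probe set 1432018_at was at -0.22, -0.44 and -0.32 in floor plate and 0.22, 0.69 and 0.23 in ventral lateral samples. The groups did not overlap, and Ascl2 was 1.63-fold lower (log2 fold change -0.70, SE 0.15, limma adjusted p = 0.0393). It passed in none of the 6 fits without 1 sample (adjusted p of 0.0665 to 0.112). Probe set 1460514_s_at gave a similar -0.72 that did not pass (SE 0.20, limma adjusted p = 0.103), and 1422396_s_at gave 0.01. Th, the tyrosine hydroxylase gene of dopaminergic neurons, lies next to Ascl2 in the RefSeq order. It went the other way, at 1.37, 1.72 and 1.54 in floor plate and -2.64, -1.37 and -2.08 in ventral lateral samples (log2 fold change 3.57, SE 0.29, limma adjusted p = 0.00064).

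The other members of the Kcnq1 domain did not pass. Cdkn1c, a Cip/Kip inhibitor of cyclin-dependent kinases that promotes cell cycle exit, did not pass, though its groups did not overlap (log2 fold change -0.27, SE 0.11, limma adjusted p = 0.272). Its unimprinted relatives Cdkn1a (-0.00 and -0.37) and Cdkn1b (0.07 and 0.01) did not pass. Phlda2, which limits placental growth, was at -0.16, and the transporter gene Slc22a18 at -0.12 and -0.04. The tetraspanin gene Cd81, Tssc4 and the nucleosome assembly gene Nap1l4 lay between 0.01 and 0.11. Kcnq1ot1, the long antisense RNA that silences the domain on the paternal chromosome, had 6 probe sets at -0.51 to 0.08, 5 of them below 0 and none past the threshold. The one farthest from 0, 1446255_at, was at 0.36, -0.36 and -0.52 in floor plate and 0.93, -0.40 and 0.48 in ventral lateral samples, so its groups overlapped widely (SE 0.36, limma adjusted p = 0.562).

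No gene of the Snrpn-Ube3a domain, the mouse counterpart of the Prader-Willi and Angelman syndrome region, passed (limma; 18 probe sets, 3 at an unadjusted p under 0.05). Over all probe sets 4.71% passed, and 16.5% had an unadjusted p under 0.05. Of the domain's 12 probe sets of paternally expressed genes, 9 were below 0. Of these, 7 were of Ndn alone and the others of Magel2 and Mkrn3, while Snrpn and Peg12 were above 0. Mkrn3, a makorin ring finger gene, was at -0.28, -0.10 and -0.26 in floor plate and 0.41, 0.10 and 0.38 in ventral lateral samples. Its groups did not overlap and it lay just outside the threshold (log2 fold change -0.51, SE 0.12, limma adjusted p = 0.0577). Magel2, encoding an enhancer of ubiquitin ligase activity, was at -0.32, 0.05 and -0.35 against 0.43, 0.55 and -0.05, with floor plate replicate 2 and ventral lateral replicate 3 crossing over (-0.52, SE 0.18, limma adjusted p = 0.2). Necdin (Ndn), a protein of postmitotic neurons, was read by 8 probe sets at -0.24 to 0.10, 7 of them below 0. The ubiquitin ligase gene Ube3a, maternally expressed in neurons, had 6 probe sets at -0.36 to 0.04. Peg12 was at 0.16, and the single probe set named to Snrpn alone at 0.11.

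Nnat, encoding the proteolipid neuronatin, was at -0.69, -0.14 and -0.45 in floor plate and 0.29, 0.14 and 0.16 in ventral lateral samples. The groups did not overlap, and the log2 fold change was -0.63 (SE 0.15, limma adjusted p = 0.0596). Of the 6 fits without 1 sample it passed in 1, that without floor plate replicate 2 (-0.77, limma adjusted p = 0.0244), and missed in the others (0.127 to 0.187). Blcap, the gene whose intron holds Nnat and whose brain expression is biased to the maternal allele, was at -0.40 (SE 0.11, limma adjusted p = 0.102). Inpp5f, an inositol phosphatase gene with an imprinted brain isoform, was at -0.43, -0.13 and -0.32 against 0.34, 0.13 and 0.20 on probe set 1433542_at, again without overlap (-0.51, SE 0.12, limma adjusted p = 0.0511), and at -0.42 and -0.27 on its others. Of the neuronal marker list, 4 of 25 probe sets were lower in floor plate and none higher (limma), with a median log2 fold change of -0.42. It was led by the intermediate filament genes Ina (-1.05) and Nefl (-0.68) and by Stmn2 (-0.66). The part of neuronal content in these values was not tested.

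**Figure D4:**
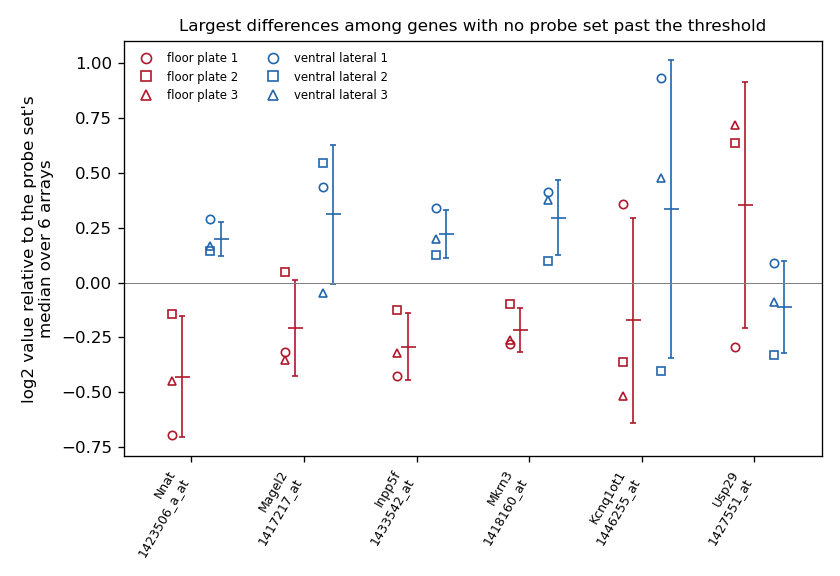
Log2 value in each array, relative to the probe set's median, for the 6 genes with the largest log2 fold changes among those with no probe set past the threshold; symbols mark the replicate number, and the dash with its bar is the mean ± SD of 3 samples. Nnat, Inpp5f and Mkrn3 have groups without overlap, while those of Magel2, Kcnq1ot1 and Usp29 overlap.

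Igf2r, the maternally expressed receptor that clears IGF2, did not pass, at 0.28 (SE 0.13, limma adjusted p = 0.363) and 0.34 (SE 0.17, limma adjusted p = 0.381). Airn, the antisense RNA that silences it on the paternal chromosome, had 5 probe sets at -0.01 to 0.17. Igf2 itself gave 0.27 and -0.23 on its probe sets. Grb10, an adaptor that dampens insulin and IGF receptor signalling and is read from the paternal allele in neurons, was at -0.38, -0.15 and -0.01. Mest, a paternally expressed hydrolase-like gene known for growth promotion, was at 0.15, 0.25 and 0.21 in floor plate and -0.15, -0.15 and -0.20 in ventral lateral samples. Its groups were separate with SDs of 0.05 and 0.03, yet it missed the threshold over all probe sets (log2 fold change 0.37, SE 0.09, limma adjusted p = 0.0639). It is given by array because of that spread, a choice made after its values were seen.

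None of the remaining members passed. Gnas, the stimulatory G protein alpha locus, had 5 probe sets at -0.30 to 0.06, and Rasgrf1, a Ras exchange factor gene, 3 at -0.10 to 0.12. Impact, an inhibitor of the kinase Gcn2, had 3 at -0.25 to -0.02. Commd1, Copg2, Nap1l5, Slc22a2 and Zdbf2 lay between -0.18 and 0.08. Klf14 was at -0.24 without overlap of the groups (SE 0.09, limma adjusted p = 0.231). The creatine synthesis gene Gatm was at 0.37 (SE 0.20, limma adjusted p = 0.427). Trappc9 had probe sets of both signs, from -0.22 to 0.21, and is counted among the 11 such genes of the 21 with several probe sets. Of the 87 probe sets that did not pass, 52 lay within 0.2 of 0.

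RNAs for proteins that keep imprints in place were listed as well. Of 25 measured genes, among them the maintenance methyltransferase gene Dnmt1, Trim28, the corepressor that Zfp57 brings to methylated imprinting control regions, and the insulator factor gene Ctcf, none had a probe set past the threshold (limma; 64 probe sets, 5 at an unadjusted p under 0.05). Dnmt1 was at -0.07 to 0.06, Trim28 at 0.01 and 0.09, and Ctcf at -0.03 and 0.09. Over the list, log2 fold changes ran from -0.27 to 0.35. Among 27 measured unimprinted relatives of the members, such as Cdkn1a, Nap1l1 and Grb14, none passed either (limma; 58 probe sets, 15 at an unadjusted p under 0.05). Over all probe sets 4.71% passed, and 16.5% had an unadjusted p under 0.05. Of the 99 member probe sets 27 did.

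As a group, the promoters of the listed genes held more CG than promoters at large, a description with no test. The 53 distinct windows of 250 bases, from 39 genes with an entry, held a median of 12 CG dinucleotides, against 6 over 32851 promoters, and their GC content was 58.0% against 52.4%. The Zfp57 motif TGCCGC, searched on both strands, was in 10 of the 53 windows (18.9%) and in 8.68% of all promoters. The motif contains a CG itself. The 10 include Mest windows that overlap almost wholly, chr6:30737800-30738049 and chr6:30737803-30738052. Identical windows of a gene were removed for the listed genes only. Of the genes that passed, Plagl1 and Pon3 held the Zfp57 motif. The forkhead motif TGTTTAC was in 2 windows (3.77%, against 3.17% of all), and the homeodomain core TAATTA also in 2 (3.77%, against 4.84%), 1 of them the first Asb4 start. The CTCF core motif was in 0 windows (0.0335% of all promoters). These matches describe letters in a short window and were not tested against the expression values.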

How the data were processed

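RNA of 3 floor plate and 3 ventral lateral samples was measured on Affymetrix arrays. The deposited log2 values were made by the authors with RMA, per the submitters' processing notes; version, log base and centring step are not given in the sources used here. Every probe set (100% within 1e-05) has a median of 0 over the 6 arrays, so no filter on level could be made, and array medians lay between -0.0030 and 0.0045. Probe sets were named by GEO's platform annotation: 34945 had 1 symbol, 932 several and 9160 none. Of the first, 34741 had an identifier in RefSeq (GRCm38.p6) and 0 changed name. The 64 control probe sets were left out. The groups were compared by limma (lmFit, eBayes), version 3.58.1 in R 4.3.3, on 45037 probe sets, with Benjamini-Hochberg adjustment; the fit was tested on simulated data. Members and lists were chosen with earlier results of these data known. Per-array values are given for genes that passed and for the 6 largest others, and for Mest, chosen after its values were seen; lists are named by their largest changes and a fixed set. Alternatives were quantile normalization, array centring, replicate block, array weights, robust eBayes, variance filter, no _x_at or _s_at probe sets, 1 value per gene, other thresholds and leaving out each sample. Promoters were read with pandas 2.3.3 in Python 3.11.15; matplotlib 3.10.9 drew the plots. The precision is limited by the number of arrays.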

Additional observations from a re-analysis of the deposited data

How the results depend on the processing

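Over 99 probe sets, 8 were higher and 4 lower. Of all probe sets 4.71% passed. Leaving out each sample gave 5 to 8 higher and 3 to 5 lower, where 2.80% to 3.69% of all probe sets passed. With the largest-variance probe set of each gene, and so fewer features, 4 genes were higher and 2 lower, where 7.80% of all genes passed. With probe sets averaged by gene 5 were higher (Mest added) and 4 lower (Plagl1, Inpp5f, Mkrn3 and Nnat, without Ascl2), where 8.13% of all genes passed. An adjusted p under 0.01 left 4 higher probe sets, and one under 0.10 gave 7 lower. The other alternatives stayed within 1.5 times of these counts. Asb4, Pon2 and Plagl1 passed in all of these alternatives. Peg3 had at least 1 probe set that passed in each but the threshold of 0.01, where its smallest limma adjusted p was 0.0105. With the other thresholds set aside, Pon3 passed in 10 of 15 and Ascl2 in 5 of 15. The replicate numbers could not be shown to pair the samples: same-numbered deviations correlated at 0.010, 0.125 and 0.114, where each had to exceed 0.1, and others at -0.149 to 0.027. With a replicate block 7 were higher and 3 lower (4.23% of all probe sets passed), without Pon3 (adjusted p = 0.055) and Ascl2 (0.0799) by limma. Nnat passed in 4 of 15 alternatives, Inpp5f and Mkrn3 in 3, and Mest in 1. Trappc9 probe set 1445611_at (0.21) was set beside -0.22 where the largest-variance probe set, a different one, stood for the gene. Centred values hold no signal level, so a gene near background cannot be told from one that does not differ.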

Other observations

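Genes beside the imprinted domains were listed as well, and 48 of 52 had a probe set of their own. Of their 91 probe sets 3 were higher in floor plate and 1 lower, where 4.71% of all probe sets passed. Besides Th, Osbpl5, an oxysterol-binding protein gene at the far end of the Kcnq1 domain that is imprinted in placenta, was at 0.86, 0.61 and 0.76 in floor plate and -0.61, -0.64 and -0.77 in ventral lateral samples. Its groups were narrow and well apart, and it was 2.67-fold higher (log2 fold change 1.42, SE 0.11, limma adjusted p = 0.000471) and passed in 15 of 15 alternatives. Between Kcnq1ot1 and Cdkn1c in gene order, the uncharacterised 4933417O13Rik was also higher (1.11, limma adjusted p = 0.028). It was singled out because of this value.

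In the stretch around Grb10 on chromosome 11, 7 genes were measured by 13 probe sets. Of these, 1 probe set was higher and 2 were lower, each of a different gene. Over all probe sets 2.70% were higher and 2.01% lower. The largest change was at 1700042O10Rik, uncharacterised and directly beside Grb10 in gene order, which was lower (log2 fold change -1.69, SE 0.11, limma adjusted p = 0.000327); it was not on the list of neighbours and was named after its value was seen. Cobl, an actin nucleator gene, was at 0.46, 0.37 and 0.77 in floor plate and -1.43, -0.37 and -0.69 in ventral lateral samples (log2 fold change 1.36, SE 0.26, limma adjusted p = 0.0271), with 0.16 on its other probe set. It passed in 2 of 6 fits without 1 sample. Ddc, encoding the decarboxylase of dopamine and serotonin synthesis, was at -0.63 (SE 0.13, limma adjusted p = 0.0405) and -0.24 on its probe sets, and passed in 1 of 6 such fits.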
